A study of Mus musculus with 12 samples.

Results

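The 38 genes described here are known transcriptional targets of p53, taken by symbol from gene count tables of sorted mouse splenic B cells. All 38 were found, each as 1 row among the 50686 genes of every table, and all 38 had enough reads to be tested among 17754 genes. They were grouped by what their products are known for: 10 in cell cycle arrest and mitosis, 12 in cell death, 5 in DNA repair, 8 in metabolism and stress, and 3 with other roles. The 12 libraries came from 12 mice in 3 groups. YC mice (n = 3) had the genotype YFPstopF/+ Cg1Cre/+ and served as normal controls. BIC mice (n = 3) had the genotype Blimp1F/F IKK2castopF/stopF Cg1Cre/+, that is, floxed Blimp1 and an activated IKK2 kinase behind a stop cassette. pBIC mice (n = 6) carried p53F/F in addition. All groups shared the Cg1Cre allele, whose recombinase is made where the IgG1 constant gene is transcribed, so that recombination is limited to such B cells and their descendants. Live B220-positive cells were sorted for the reporter, which was YFP in YC and GFP in BIC and pBIC, so the reporter differed between the controls and both lymphoma models. The labels used here give no ages and no stage of disease at sampling.

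The transcription factor p53 is held low in unstressed cells by the ubiquitin ligase Mdm2 and accumulates after DNA damage or oncogenic signals, when it binds paired copies of a short motif near its targets. Those targets halt the cell cycle, open death pathways, supply repair enzymes and restrain growth, and several of them feed back on p53 itself. In B cells that pass through the germinal centre, the Bcl6 repressor damps this response. Many p53 targets are also driven by other factors, so their level is no direct readout of p53.

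Total counts ran from 33127283 to 47067627 per library. B cell markers were abundant throughout, with 7 genes (Cd79a, Cd79b, Ms4a1, Pax5, Ptprc, Cd22 and Ebf1) summing to 7334 to 9013 CPM (counts scaled to a common library total with TMM factors) in YC, 7921 to 8144 in BIC and 2195 to 6037 in pBIC. Germinal centre markers, 7 genes that include Bcl6 and Fas, summed to 685 to 1521 CPM in YC against 21.1 to 43.4 in BIC and 17.9 to 39.4 in pBIC. Neutrophil markers (8 genes) summed to 683, 1165 and 45.1 CPM in BIC 1, 2 and 3, to 189 CPM in YC 1, to at most 5.73 in the other YC libraries and to 3.52 to 57.1 in pBIC. Macrophage markers (8 genes) summed to 198 to 296 CPM in BIC, 49.9 to 90.8 in YC and 17.1 to 339 in pBIC. They did not move as 1 set, since in BIC against YC Itgam and Cd68 were called higher and Adgre1 lower. Adgre1 measured 25.2 to 28.4 CPM in YC, 3.32 to 4.10 in BIC and 0.213 to 2.01 in pBIC. T cell markers (8 genes) summed to 127 to 163 CPM in BIC, 63.2 to 94.1 in YC and 20.9 to 58.4 in pBIC. These sums did not overlap, but they came mainly from Lck in YC and from Cd3g and Lck in BIC. Only Cd3g was called in BIC against YC. It measured 86.97, 85.3 and 11.99 CPM in BIC and 1.86 to 3.4 CPM in YC. Lck ran from 38.7 to 81.8 CPM in BIC and from 49.7 to 77.7 CPM in YC. The sums therefore do not stand for all 8 genes. The defining Cd3d and Cd3e stayed at or under 5.69 CPM in every library. Transcripts linked to the sex chromosomes also moved with the groups: YC libraries carried Y-linked transcripts, BIC libraries carried Xist, and pBIC libraries were mixed. In such bulk samples fewer cells of a type and less RNA per cell cannot be told apart. Their part in the results was not tested, and per-library values are given so that each can be read beside them.

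The p53 motif is 2 copies of a 10-base half-site in tandem, and sequences are shown for the members where it lay near the start of the gene, since these are the targets whose sequence can be set beside their expression. RefSeq promoter windows on GRCm38.p6, from 250 bases before to 50 bases after each start, were matched for 31 of the 38 members. A full site of 20 bases with at most 1 mismatch in each half-site was found in 5 members, or 16.1%, and in 0.244% of 27025 genes with a window. Capitals mark the match, on the strand of the gene, read 5′ to 3′. The sites of Cdkn1a (chr17:29090928-29090947) and Ccng1 (chr11:40755462-40755481) are shown with flanks, because both lie before the annotated gene. Those of Gtse1 (chr15:85859945-85859964), Rps27l (chr9:66946296-66946315) and Trp73 (chr4:154097220-154097239) lie within the annotated gene and are shown alone.
Cdkn1a: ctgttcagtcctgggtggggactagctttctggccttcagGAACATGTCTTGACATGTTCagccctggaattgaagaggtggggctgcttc
Ccng1: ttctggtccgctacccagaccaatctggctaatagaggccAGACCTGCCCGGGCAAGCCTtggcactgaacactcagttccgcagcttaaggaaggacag
Gtse1: GAGCAAGTTGGGGCTTGCCT
Rps27l: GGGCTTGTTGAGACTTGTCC
Trp73: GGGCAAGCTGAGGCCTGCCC
The Cdkn1a site began 51 bases before the RefSeq start of its window, and the Ccng1 site 195 bases before its own. A gene can have several RefSeq starts, as Aen and Rps27l do here, so such a start need not be the one most used. An exact half-site was present in 10 of the 31 members, or 32.3%, against 9.55% of all genes. Gadd45a and Ckap2, which fell in BIC, were among the 10. The half-sites of Aen, Ei24 and Polk, which rose in BIC, were as follows.
Aen (chr7:78895937-78895946): GGGCTTGTCC
Ei24 (chr9:36797335-36797344): GGGCATGCCC
Polk (chr13:96519409-96519418): GAACTAGCCT
A match says only that these letters lie in the window.

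Trp53, the gene floxed in pBIC, was examined first. Its level was 137, 140 and 147 CPM in the YC libraries and 149, 72.1 and 209 CPM in the BIC libraries. In pBIC it ran from 16.2 to 32.0 CPM with a median of 24.1. All 6 pBIC libraries lay below all 6 others, and the YC and BIC libraries overlapped. The fall in pBIC was -2.58 ± 0.27 SE on the log2 scale relative to YC (edgeR adjusted p = 0.000191) and -2.59 ± 0.27 relative to BIC (edgeR adjusted p = 0.000583). BIC and YC did not pass the test (0.02 ± 0.32, edgeR adjusted p = 0.983). The gene-level count does not separate exons inside and outside the floxed part.

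**Figure D1:**
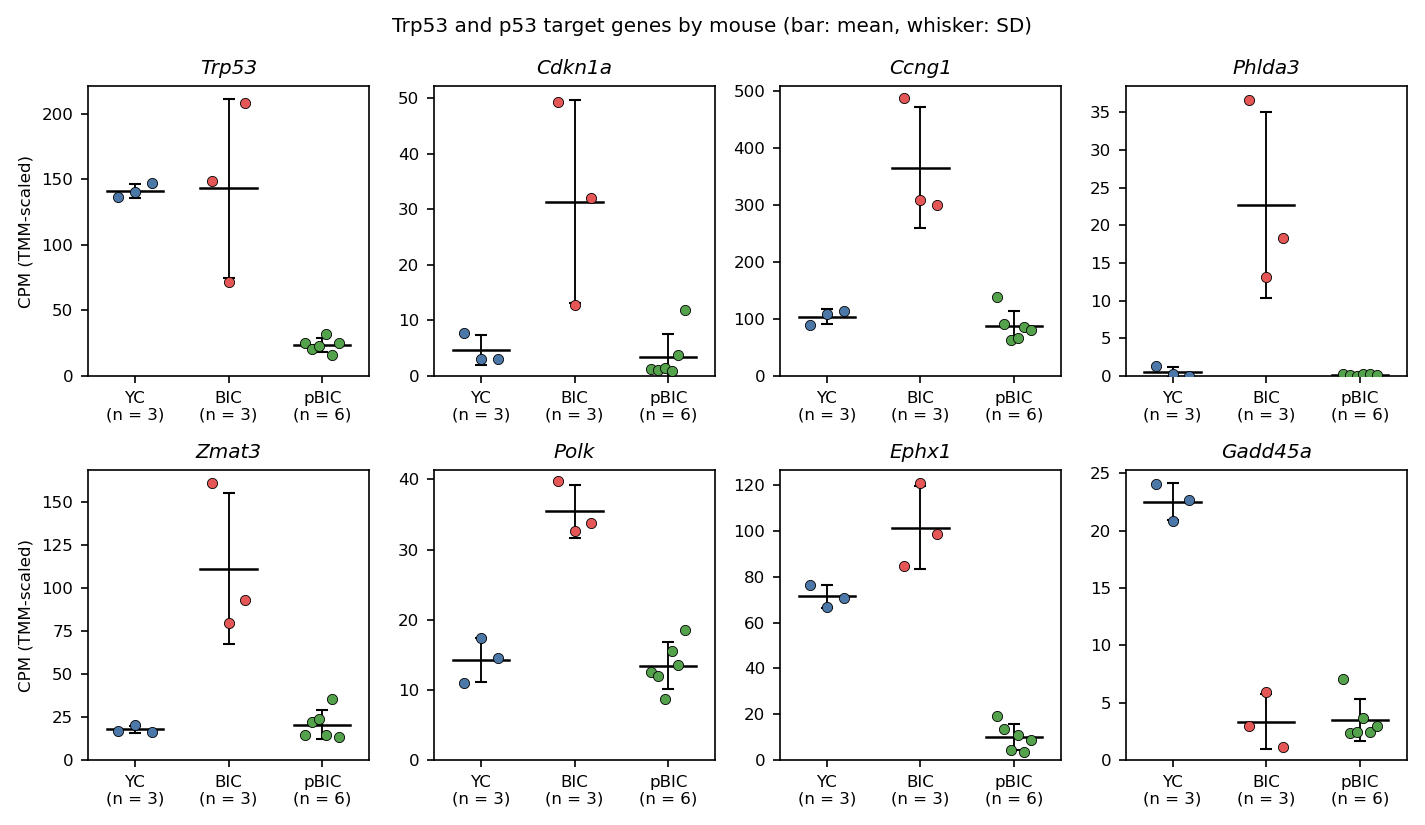
Level in CPM (y axis, from 0) of Trp53 and 7 of its target genes in each mouse, by group (x axis). Each point is 1 library, the bar is the mean and the whisker the SD. Ccng1, Phlda3, Zmat3 and Polk are high in all 3 BIC libraries and low in YC and pBIC, Ephx1 is low in pBIC alone among the groups, and Gadd45a is high in YC alone.

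In BIC against YC, the comparison of activated IKK2 and floxed Blimp1 with normal controls, 7 of the 38 targets rose and 3 fell. The 7 were Phlda3, Zmat3, Aen, Ei24, Ccng1, Polk and Eda2r, and the 3 were Gadd45a, Pidd1 and Ckap2. Eda2r reached the expression filter through the BIC libraries alone, and Perp, called nowhere, through pBIC libraries alone, so both are left out of the shares that follow. Of the other 36 members 25.0% were called, beside 8.88% of all genes tested. Higher calls made up 16.7% of the 36 against 3.9% of all genes, and lower calls 8.33% against 4.97%. The median log2 fold change over the 36 was -0.11, beside 0.01 over all genes, and over all 38 it was 0.05, so its sign rests on the members counted.

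In pBIC against BIC, which adds the loss of p53, 10 targets fell and 2 rose. The 10 were Cdkn1a, Ccng1, Psrc1, Phlda3, Eda2r, Ei24, Polk, Ercc5, Ephx1 and Zmat3, and the 2 were Pidd1 and Ckap2. Over the same 36, which leave out Eda2r, the called share was 30.6%, beside 19.7% of all genes. Lower calls were 25.0% of the 36 against 8.78% of all genes, and higher calls 5.56% against 10.9%. The median over the 36 was -0.23 on the log2 scale, beside 0.09 over all genes.

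In pBIC against YC, 4 targets fell (Gadd45a, Rrm2b, Ephx1 and Cd82) and 3 rose (Aen, Tigar and Rps27l). The called share of the 36, 19.4%, was near the 22.0% of all genes, with 8.33% higher against 11.8% of genes and 11.1% lower against 10.2%. The median was -0.24, beside 0.10 over all genes. Without pBIC 1 and pBIC 6 together, the pBIC libraries highest in immediate-early genes, 5 members rose and 10 fell. In that fit the share of all genes called also rose, to 32.2%. The 3 comparisons share libraries pairwise, so the values of each gene in them are set side by side below and not counted as separate evidence. In all, 18 members, Eda2r among them, were called in at least 1 comparison and 20 in none. The matching share of all genes was not computed, so the 18 are no result about the members as a set.

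**Figure D2:**
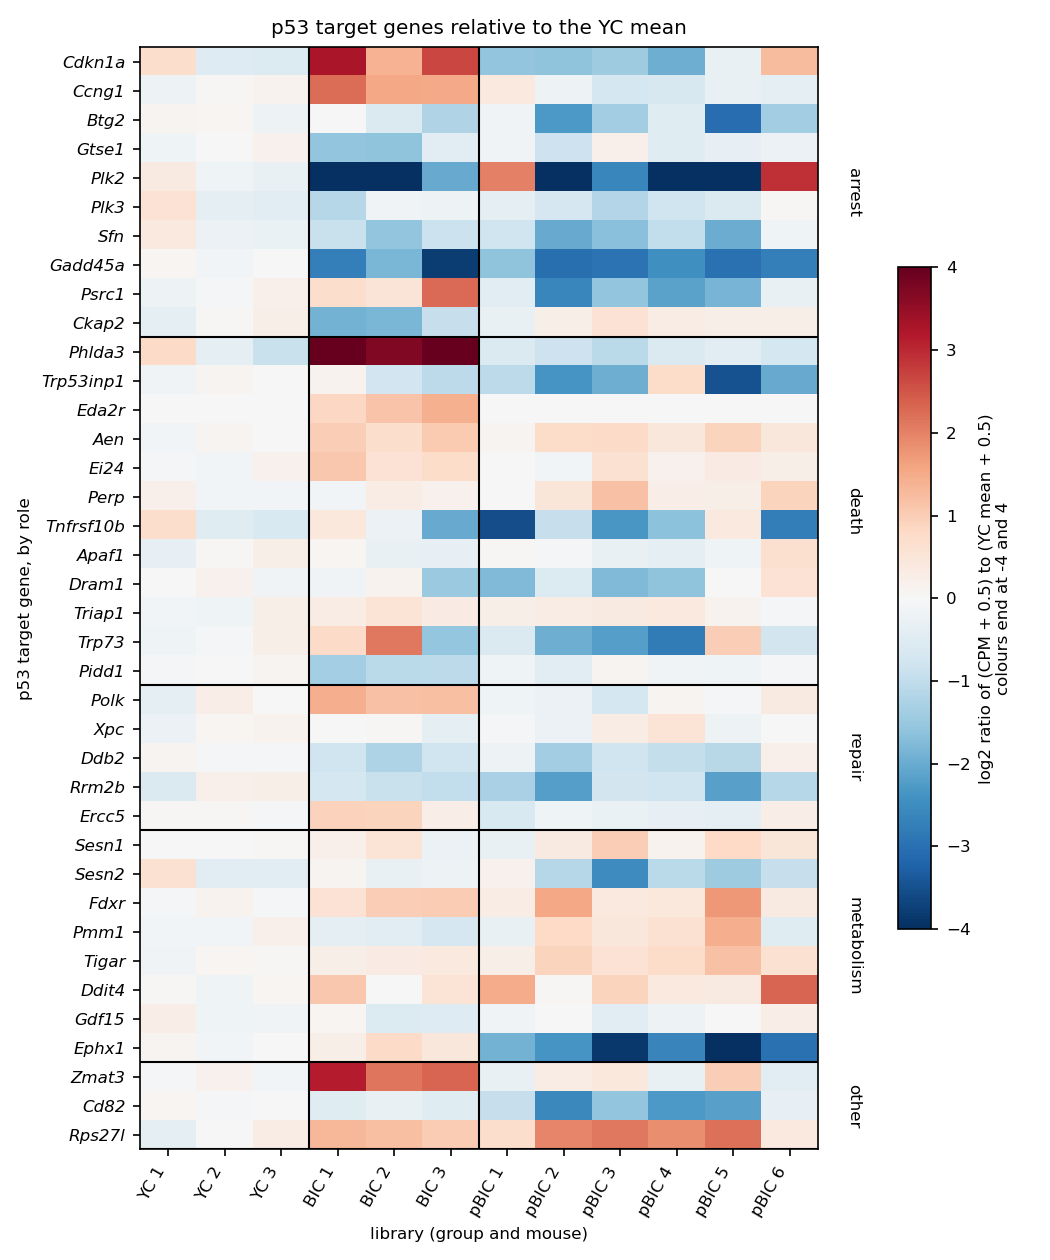
The 38 p53 targets (rows, by role) in the 12 libraries (columns), coloured by the log2 ratio of CPM + 0.5 to the YC mean + 0.5, with red higher and blue lower. Phlda3, Zmat3, Ccng1 and Cdkn1a are red in all 3 BIC columns, Gadd45a is blue in all BIC and pBIC columns, and Plk2 is red only in pBIC 1 and pBIC 6 outside YC.

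Among the arrest genes, Cdkn1a encodes p21, the inhibitor of cyclin-dependent kinases through which p53 halts the cycle. It measured 7.79, 3.12 and 3.01 CPM in YC and 49.4, 12.9 and 32.0 CPM in BIC. The pBIC libraries ran from 0.824 to 11.8 CPM with a median of 1.32. All BIC libraries lay above all others, narrowly so for BIC 2 at 12.9 CPM against pBIC 6 at 11.8 CPM. Cdkn1a fell in pBIC against BIC (log2 -3.22 ± 0.79 SE, edgeR adjusted p = 0.0156), but BIC against YC did not pass (2.76 ± 1.001, edgeR adjusted p = 0.108). That rise was called by DESeq2 (adjusted p = 0.0209), with only the 2 groups in the edgeR fit (adjusted p = 0.018) and without pBIC 6 (edgeR adjusted p = 0.0269). In pBIC against YC, where the libraries overlapped (-0.47 ± 0.80, edgeR adjusted p = 0.711), it was called lower with only pBIC 1 to 3 (edgeR adjusted p = 0.038). The fall in pBIC against BIC was not called without BIC 1 (edgeR adjusted p = 0.0804, with 0.00163 to 0.0804 over the 12 fits that each leave out 1 library) nor with only pBIC 4 to 6.

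Ccng1 encodes cyclin G1, a p53 target that helps turn p53 back down through Mdm2. Its level was 89.4, 109 and 114 CPM in YC and 487, 308 and 300.1 CPM in BIC. In pBIC it ran from 63.2 to 138 CPM with a median of 82.7. The BIC libraries stood clear of all 9 others. Ccng1 rose 3.51-fold in BIC against YC (log2 1.81 ± 0.30 SE, edgeR adjusted p = 0.00492) and fell in pBIC against BIC (-2.07 ± 0.24, edgeR adjusted p = 0.00073), and pBIC and YC overlapped (-0.26 ± 0.25, edgeR adjusted p = 0.488). With 104 CPM per kb of exon, Ccng1 had the highest mean level per length of the 38 targets in BIC; in YC that place belonged to Btg2 at 120 CPM per kb.

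Gadd45a, a growth arrest and stress sensor protein, was lower in both lymphoma models than in YC. It measured 24.1, 20.9 and 22.7 CPM in YC and 2.99, 5.94 and 1.14 CPM in BIC. The pBIC libraries ran from 2.34 to 7.09 CPM with a median of 2.71. Both lymphoma models lay wholly below the controls and overlapped each other. Relative to YC, Gadd45a fell by 2.75 ± 0.59 SE on the log2 scale in BIC (edgeR adjusted p = 0.0158) and fell by 2.69 ± 0.46 in pBIC (edgeR adjusted p = 0.00217). The comparison of pBIC with BIC did not pass (0.06 ± 0.48, edgeR adjusted p = 0.949). The call in BIC was lost without YC 3 or without BIC 1 (edgeR adjusted p from 0.00775 to 0.0694 when single libraries were left out), and that in pBIC held in all 12 such fits. Germinal centre markers were lower in the same libraries, and their part was not tested. Gadd45a shares 19.1% of its exon length with the antisense gene E230016M11Rik, and the counts do not use strand.

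Ckap2, a protein of the mitotic spindle, measured 16.4, 21.98 and 25.2 CPM in YC and 5.32, 5.59 and 11.1 CPM in BIC. The pBIC libraries ran from 17.0 to 31.7 CPM with a median of 24.8. BIC lay below both other groups, which overlapped. Ckap2 fell in BIC against YC (log2 -1.53 ± 0.32 SE, edgeR adjusted p = 0.0134) and rose in pBIC against BIC (1.76 ± 0.29, edgeR adjusted p = 0.00269). The first call was lost without YC 2, YC 3, BIC 1 or BIC 2 in turn (edgeR adjusted p from 0.00665 to 0.0677). Gtse1, a microtubule-associated protein of late cell cycle phases, averaged 33.3 ± 3.84 CPM (SD, n = 3) in YC, 15.3 ± 7.85 in BIC and 27.5 ± 6.73 (n = 6) in pBIC, and missed the threshold in BIC against YC (edgeR adjusted p = 0.0591) and in pBIC against BIC (0.065).

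Psrc1, another spindle protein, did not follow Ckap2. It measured 7.62, 8.47 and 10.3 CPM in YC and 14.5, 12.8 and 44.2 CPM in BIC, and ran from 1.04 to 7.10 CPM with a median of 2.34 in pBIC. The 3 groups did not overlap, with BIC highest and pBIC lowest. Psrc1 fell in pBIC against BIC (log2 -2.77 ± 0.59 SE, edgeR adjusted p = 0.00784), a call that was lost without BIC 3 (0.0501, with 0.00462 to 0.0501 over single libraries left out). Neither lymphoma group passed against YC (edgeR adjusted p = 0.23 for BIC and 0.122 for pBIC).

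Genes of dividing cells moved in the direction of Ckap2 and, without a call, Gtse1, and against that of Psrc1. Of 30 proliferation genes, 28 fell in BIC against YC and 29 rose in pBIC against BIC, with medians of -1.94 and 1.97 on the log2 scale beside 0.01 and 0.09 over all genes. Against YC, 1 rose in pBIC. In BIC against YC, pBIC against BIC and pBIC against YC, the called shares were 93.3%, 96.7% and 3.33% of the 30. Beside them, 8.88%, 19.7% and 22.0% of all genes were called. Their summed level was 952 to 1725 CPM in BIC, 3648 to 5269 in YC and 3358 to 6385 in pBIC. The part of cell division in the values of Ckap2, Gtse1 and Psrc1 was not tested.

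Plk2, a polo-like kinase that is also induced by growth signals, differed widely between pBIC mice. It measured 211, 144 and 134 CPM in YC and 4.77, 9.48 and 40.02 CPM in BIC. In pBIC 1 and pBIC 6 it stood at 658 and 1251 CPM, against 1.97 to 26.4 CPM in the other 4. No comparison was called in the main fit (edgeR adjusted p from 0.171 to 0.709). With only the 2 groups in the edgeR fit, Plk2 was called lower in BIC against YC (-3.17, adjusted p = 0.0334). DESeq2 called it higher in pBIC against BIC (4.14, adjusted p = 0.0412). The estimate for pBIC against YC was 0.995 ± 1.70 SE, and without pBIC 1 and pBIC 6 it turned to -4.02 (edgeR adjusted p = 0.0116). Immediate-early genes, 15 transcripts that follow acute stimulation, summed to 10286 and 13706 CPM in those 2 libraries and to 1369 to 2896 in the other 4. In YC they summed to 7847 to 15243 CPM and in BIC to 1979 to 6880 CPM, so pBIC 1 and pBIC 6 lay within the YC range. The part of these genes in the level of Plk2 was not tested.

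The other arrest genes passed in no comparison. Btg2, an antiproliferative protein, averaged 329 CPM in YC, 232 in BIC and 148 in pBIC, with pBIC libraries from 39.3 to 297 CPM. Plk3, a stress-responsive polo-like kinase, averaged 33.8, 25.0 and 23.0 CPM in YC, BIC and pBIC. Sfn, the 14-3-3 sigma protein that retains cyclin B kinase in the cytoplasm, averaged 48.1 ± 13.6 CPM in YC, 22.5 ± 5.96 in BIC and 21.96 ± 11.96 in pBIC, and was near the threshold in pBIC against YC (edgeR adjusted p = 0.0559).

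**Figure D3:**
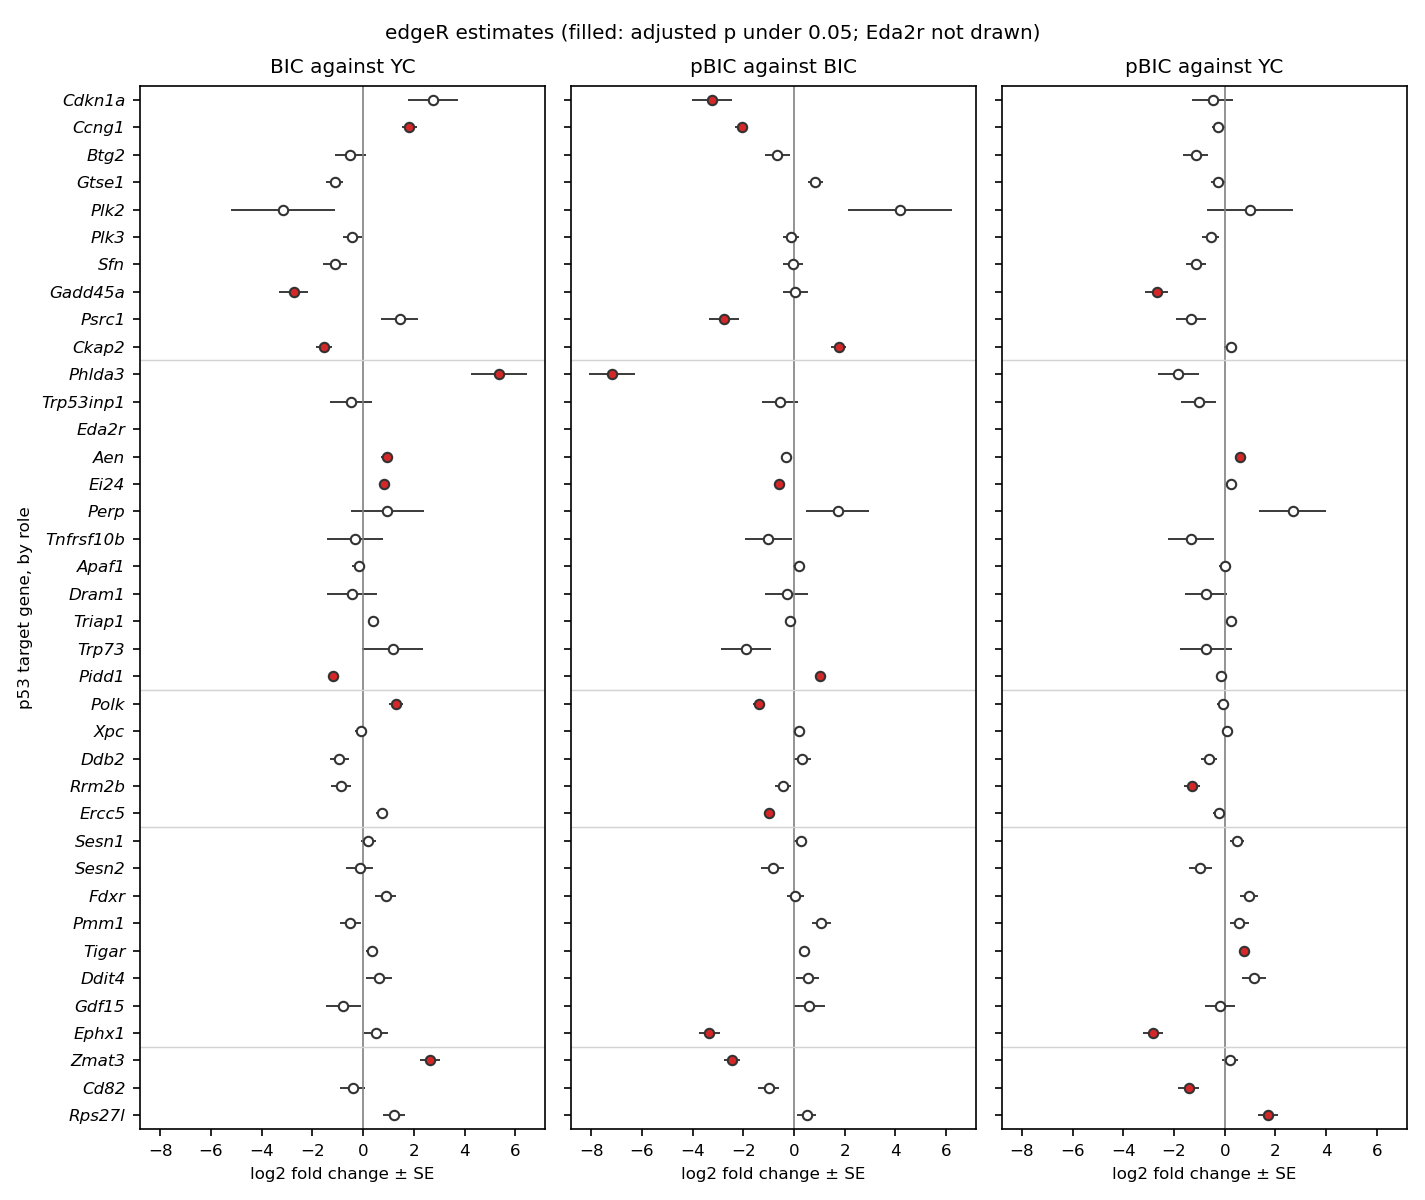
Log2 fold change ± SE (x axis, the same scale in each panel) of the p53 targets (y axis, by role) in the 3 comparisons, from the edgeR fit over all genes. Filled points had an adjusted p under 0.05. Eda2r is not drawn because 2 groups held no counts. Filled points lie to the left for 9 drawn genes in pBIC against BIC.

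Among the death genes, Phlda3, a pleckstrin-homology protein that restrains Akt signalling, was high in BIC alone. It measured 1.27, 0.307 and 0.0615 CPM in YC and 36.6, 13.1 and 18.3 CPM in BIC. In pBIC it ran from 0 to 0.278 CPM with a median of 0.173. Every BIC library lay above every YC and pBIC library, and the YC and pBIC libraries overlapped. Phlda3 rose 40.9-fold in BIC against YC (log2 5.35 ± 1.11 SE, edgeR adjusted p = 0.0134) and fell in pBIC against BIC (-7.18 ± 0.90, edgeR adjusted p = 0.000851). The rise was not called without YC 2 or without BIC 1 (edgeR adjusted p from 0.00584 to 0.0683), and the fall held in all 12 fits with 1 library left out. Beside these values, neutrophil markers summed to 189, 5.73 and 1.60 CPM in YC 1, 2 and 3. They summed to 683, 1165 and 45.1 CPM in BIC 1, 2 and 3. The part of those cells in the level of Phlda3 was not tested.

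Eda2r, a receptor of the tumour necrosis factor family, was counted in BIC alone. The BIC libraries held 0.392, 0.599 and 0.837 CPM, or 70 counts in all, and every YC and pBIC library held 0. Against a floor of 3 counts over each whole group, Eda2r was at least 24.7-fold higher in BIC than in YC and at least 48.5-fold higher than in pBIC. The fit called it in both comparisons (edgeR adjusted p = 0.0338 and 0.00852), but since it was tested only because of its BIC counts, those calls are a description and no independent evidence of the difference. The call against YC was lost when any 1 of the 6 YC and BIC libraries was left out (edgeR adjusted p from 0.0273 to 0.12 over 12 fits). The gene lies on the X chromosome, and BIC libraries differ from YC in Xist, as pBIC 2, 4 and 5 do. The part of sex-linked expression was not tested.

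Aen, an apoptosis-enhancing nuclease, was higher in both lymphoma models. It measured 30.1, 34.9 and 32.4 CPM in YC and 64.9, 53.1 and 67.2 CPM in BIC, and ran from 34.9 to 60.9 CPM in pBIC with a median of 49.3. BIC lay wholly above YC, and the lowest pBIC library touched the highest YC library. Relative to YC, Aen rose in BIC by 0.93 ± 0.21 SE on the log2 scale (edgeR adjusted p = 0.0186) and in pBIC by 0.59 ± 0.18 (edgeR adjusted p = 0.0359), and pBIC against BIC did not pass (-0.33 ± 0.18, edgeR adjusted p = 0.201). The first call was lost without YC 1, YC 2, YC 3, BIC 1 or BIC 3 in turn (edgeR adjusted p from 0.00837 to 0.0741), and the second in 7 of 12 such fits, those without any YC library, BIC 1, pBIC 2, pBIC 3 or pBIC 5 (0.0103 to 0.135).

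Ei24, a protein of the endoplasmic reticulum linked to death and autophagy, measured 32.8, 32.2 and 39.6 CPM in YC and 73.9, 52.8 and 58.3 CPM in BIC. The pBIC libraries ran from 32.4 to 53.1 CPM with a median of 40.03. BIC stood above YC and met pBIC at its edge. Ei24 rose in BIC against YC (log2 0.82 ± 0.21 SE, edgeR adjusted p = 0.0306) and fell in pBIC against BIC (-0.59 ± 0.18, edgeR adjusted p = 0.0344). The rise was lost without YC 1, YC 2, YC 3, BIC 1 or BIC 3 in turn (edgeR adjusted p from 0.0202 to 0.125) and the fall without YC 2, BIC 1, BIC 3 or pBIC 2 (0.018 to 0.185).

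Pidd1 scaffolds the complex that activates caspase-2, and it moved against the direction of Phlda3 and Ei24. It measured 45.7, 47.5 and 52.1 CPM in YC and 18.5, 22.5 and 23.4 CPM in BIC, and ran from 36.2 to 52.4 CPM in pBIC with a median of 43.1. BIC lay wholly below both other groups, which overlapped. Pidd1 fell in BIC against YC (log2 -1.17 ± 0.17 SE, edgeR adjusted p = 0.003) and rose in pBIC against BIC (1.03 ± 0.15, edgeR adjusted p = 0.00159). Both calls held in all 12 fits with 1 library left out. The summed proliferation genes were also lowest in BIC, and their part was not tested.

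The other 7 death genes passed in no comparison. Trp53inp1, a cofactor of p53 in death and autophagy, averaged 247 ± 21.2 CPM in YC and 177 ± 81.3 in BIC and ran from 21.5 to 413 CPM in pBIC. Apaf1, the core of the apoptosome, averaged 73.7, 65.2 and 74.0 CPM in YC, BIC and pBIC. Triap1, a mitochondrial protein that restrains apoptosis, averaged 20.4, 27.0 and 24.1 CPM in the same order. Trp73, a p53 family member, measured 7.24, 19.1 and 1.06 CPM in BIC and 0.154 to 8.49 CPM in pBIC, so that BIC and pBIC overlapped. Tnfrsf10b, a receptor for the death ligand TRAIL, ran from 0.255 to 11.1 CPM in pBIC and from 1.67 to 13.8 CPM over YC and BIC. Perp, a membrane protein of cell junctions, and Dram1, a lysosomal regulator of autophagy, were low, with at most 0.718 and 3.17 CPM in any library.

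Of the 5 repair genes, Polk, a polymerase that copies past damaged bases, was highest in BIC. It measured 10.9, 17.3 and 14.5 CPM in YC and 39.8, 32.7 and 33.8 CPM in BIC, and ran from 8.64 to 18.5 CPM in pBIC with a median of 13.04. BIC lay wholly above both other groups. Polk rose in BIC against YC (log2 1.31 ± 0.28 SE, edgeR adjusted p = 0.0144) and fell in pBIC against BIC (-1.40 ± 0.23, edgeR adjusted p = 0.00242). The rise was lost without YC 1, YC 3 or BIC 1 (edgeR adjusted p from 0.0072 to 0.0615), and the fall held in all 12 such fits.

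Ercc5 encodes the XPG endonuclease of nucleotide excision repair. It measured 24.2, 24.2 and 22.5 CPM in YC and 45.5, 44.0 and 28.4 CPM in BIC, and ran from 15.2 to 28.6 CPM in pBIC with a median of 19.1. BIC 3 met the top of the pBIC range, while BIC 1 and BIC 2 stood apart. Ercc5 fell in pBIC against BIC (log2 -0.97 ± 0.21 SE, edgeR adjusted p = 0.00832), which was lost without BIC 1 (0.0551, with 0.00296 to 0.0551 over single libraries left out), and BIC against YC did not pass (0.74 ± 0.25, edgeR adjusted p = 0.0872). BIC 1 and BIC 2 are also the libraries with the most neutrophil markers.

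Rrm2b, the p53-inducible subunit of ribonucleotide reductase, was lower in pBIC than in YC. It measured 62.2, 106 and 110 CPM in YC and 56.4, 50.05 and 46.6 CPM in BIC, and ran from 19.9 to 55.6 CPM in pBIC with a median of 39.6. Both models lay wholly below YC and overlapped each other. Rrm2b fell by this test in pBIC relative to YC (log2 -1.29 ± 0.32 SE, edgeR adjusted p = 0.0146), a call lost without YC 2 or YC 3 (0.011 to 0.0721), and BIC against YC did not pass (-0.86 ± 0.39, edgeR adjusted p = 0.187). Xpc and Ddb2, which recognise damage for excision repair, passed in no comparison. Xpc averaged 26.9, 25.1 and 28.7 CPM in YC, BIC and pBIC, and Ddb2 averaged 28.9, 15.0 and 18.8 CPM, with 23.8% of its exon length shared with Acp2 on the other strand.

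Among the 8 metabolic and stress genes, none was called in BIC against YC. Since 8.88% of all genes were called there, so few genes can easily hold no call. Ephx1, the microsomal epoxide hydrolase, measured 76.5, 66.8 and 70.9 CPM in YC and 84.7, 121 and 98.7 CPM in BIC. In pBIC it ran from 3.66 to 19.1 CPM with a median of 9.78. The 6 pBIC libraries lay far below the 6 others. In pBIC, Ephx1 fell by 2.83 ± 0.41 SE on the log2 scale relative to YC (edgeR adjusted p = 0.000946) and fell by 3.34 ± 0.41 relative to BIC (edgeR adjusted p = 0.000845). Both calls held in all 12 fits with 1 library left out.

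Tigar, a phosphatase that lowers glycolytic flux, was higher in pBIC than in YC. It measured 15.5, 17.9 and 17.7 CPM in YC and 20.3, 21.4 and 22.6 CPM in BIC, and ran from 19.995 to 39.2 CPM in pBIC with a median of 27.6. Both models lay wholly above YC. Tigar rose in pBIC against YC (log2 0.75 ± 0.20 SE, edgeR adjusted p = 0.0203), and this was lost without any 1 of the YC libraries (0.00672 to 0.0907 over single libraries left out). BIC against YC did not pass (0.33 ± 0.23, edgeR adjusted p = 0.386).

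The other 6 metabolic genes passed in no comparison. Sesn1 and Sesn2, which restrain mTORC1 signalling, averaged 81.9, 94.5 and 114 CPM and 32.9, 30.1 and 16.9 CPM in YC, BIC and pBIC. Fdxr, a mitochondrial reductase, averaged 18.1 ± 1.49 CPM in YC, 33.6 ± 5.40 in BIC and 35.0 ± 18.1 in pBIC, and both models lay wholly above YC without passing (edgeR adjusted p = 0.192 for BIC and 0.0808 for pBIC). Pmm1, a phosphomannomutase, ran from 9.76 to 11.96 CPM in BIC and from 11.2 to 44.4 CPM in pBIC (edgeR adjusted p = 0.0661). Ddit4, an inhibitor of mTORC1 that responds to stress, stood at 142 and 257 CPM in pBIC 1 and pBIC 6 and at 52.0 to 94.9 CPM in the other 4 pBIC libraries. Gdf15, a stress cytokine, stayed at or under 0.568 CPM in every library.

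The remaining 3 targets have other roles. Zmat3, an RNA-binding zinc finger protein, measured 16.8, 20.3 and 16.5 CPM in YC and 161, 79.7 and 92.6 CPM in BIC. The pBIC libraries ran from 13.1 to 35.5 CPM with a median of 18.4. BIC stood clear of both other groups, which overlapped. Zmat3 rose 6.21-fold in BIC against YC (log2 2.64 ± 0.40 SE, edgeR adjusted p = 0.00369) and fell in pBIC against BIC (-2.43 ± 0.31, edgeR adjusted p = 0.00096), and both calls held in all 12 fits with 1 library left out.

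Rps27l, a close relative of a ribosomal protein, was higher in pBIC than in YC. It measured 17.4, 22.5 and 27.9 CPM in YC and 58.1, 52.2 and 46.4 CPM in BIC, and in pBIC ran from 29.8 to 106 CPM with a median of 86.1. Both models lay wholly above YC, and pBIC 1 (36.9 CPM) and pBIC 6 (29.8 CPM) lay below every BIC library. Rps27l rose in pBIC against YC (log2 1.71 ± 0.40 SE, edgeR adjusted p = 0.0105), which was lost without YC 1 or YC 2 (0.00228 to 0.0572), and BIC against YC did not pass (1.21 ± 0.43, edgeR adjusted p = 0.103), nor did pBIC against BIC (0.50 ± 0.38, edgeR adjusted p = 0.368). The level of a gene with near-identical copies is uncertain because multi-mapping reads were not counted.

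Cd82, a tetraspanin of the cell surface, measured 134, 119 and 126 CPM in YC and 90.5, 102 and 91.1 CPM in BIC, and ran from 20.5 to 101 CPM in pBIC with a median of 34.8. Both models lay below YC, and pBIC 6 reached the BIC range. Cd82 fell by this test in pBIC relative to YC (log2 -1.42 ± 0.41 SE, edgeR adjusted p = 0.0288), a call lost without any 1 of the YC libraries (0.00295 to 0.0892), and pBIC against BIC did not pass (-1.002 ± 0.42, edgeR adjusted p = 0.111).

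In BIC against YC, leaving out single libraries gave 2 to 10 higher and 1 to 4 lower members, with the fewest higher ones without BIC 1, and 3 without each YC library. Zmat3, Ccng1 and Pidd1 were called in all 12 of those fits. Without YC 1, BIC 1 and BIC 2 together, the libraries with the most neutrophil markers, BIC was a single library assumed to vary like the other groups, and 0 members and 0 of all genes were called against YC, although all 10 members kept their sign. In pBIC against BIC that fit called Phlda3 alone, and all 12 members kept their sign.

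Several calls also ended when Xist, as a measure of sex-linked differences, was added to the fit as a term. In BIC against YC these were Gadd45a, Phlda3, Eda2r, Aen, Ei24 and Polk (edgeR adjusted p from 0.0746 to 1), so that Zmat3, Ccng1, Pidd1 and Ckap2 were kept. In pBIC against YC they were Aen, Rrm2b, Tigar, Cd82 and Rps27l (edgeR adjusted p from 0.0522 to 0.167), so that Gadd45a and Ephx1 were kept. All 12 calls in pBIC against BIC were kept. The term also added calls, with Psrc1 and Ddit4 higher in BIC against YC and Ddit4 higher in pBIC against YC. In pBIC against BIC it added Pmm1 and Tigar as higher and Cd82 as lower. Over these added calls the edgeR adjusted p ran from 0.00307 to 0.04755. Xist was at most 5.13 CPM in YC and at least 1680 CPM in BIC, so in BIC against YC the term ran with the group. Within groups it was set mainly by pBIC 2, 4 and 5 against the other pBIC libraries. Of these, pBIC 1 held little of either kind, with 2.58 CPM of Xist and 5.48 CPM of Y-linked transcripts. Calls lost, kept or added with the term therefore do not show which depend on sex-linked differences. Without a filter on low counts Ei24 was lost in both of its comparisons, as were Aen and Tigar in pBIC against YC (edgeR adjusted p from 0.0554 to 0.107). With only the 2 groups in the fit, Aen and Cd82 were lost in pBIC against YC and Ei24 in pBIC against BIC (edgeR adjusted p from 0.0554 to 0.0621). With only pBIC 1 to 3, Aen and Tigar were lost against YC and Ei24 against BIC (edgeR adjusted p from 0.0638 to 0.0924), and with only pBIC 4 to 6, Cd82 against YC and Cdkn1a and Ei24 against BIC (edgeR adjusted p from 0.0577 to 0.0947).

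The deposited tables carry a further division of the pBIC libraries in their names, pBICh for pBIC 1 to 3 and pBICl for pBIC 4 to 6, which the labels neither give nor explain. Between them 0 members and 0.0% of all genes were called by edgeR. At an unadjusted p under 0.05 edgeR gave 1 member and 531 genes, and DESeq2 called 28 genes and 0 members. That member was Cdkn1a, at 1.22, 1.17 and 1.41 CPM in pBICh and 0.824, 3.70 and 11.8 CPM in pBICl, which overlap. Its adjusted p was 1 (edgeR; log2 difference -2.10 ± 0.81 SE). Trp53 averaged 23.0 CPM in pBICh and 24.4 CPM in pBICl.

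Set beside the sequences, 6 of the 7 targets that rose in BIC had a promoter window, and 4 of these (Ccng1, Aen, Ei24 and Polk) held an exact half-site. Of the 3 that fell in BIC, each with a window, 2 (Gadd45a and Ckap2) held one too. Of the 2 that rose in pBIC against BIC, each with a window, 1 (Ckap2) did. Of the 10 that fell in pBIC against BIC, 9 had a window, 4 held an exact half-site (Cdkn1a, Ccng1, Ei24 and Polk), and 2 a full site with at most 1 mismatch in each half-site (Cdkn1a and Ccng1). The other 3 members with a full site went other ways. Rps27l rose in pBIC against YC, while Gtse1 and Trp73 were called in no comparison. With 1 mismatch allowed, half-sites were present in 71.0% of the members and 54.2% of all genes. No window was matched for Zmat3, the target with a strong rise in BIC, and the windows of Phlda3 held no half-site at either setting.

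Another 20 genes known as p53 targets were listed beside the 38, and 18 had enough reads to be tested. In BIC against YC, 2 rose and 3 fell, in pBIC against BIC 0 rose and 2 fell, and in pBIC against YC 0 rose and 4 fell. These are 27.8%, 11.1% and 22.2% of the 18, beside 8.88%, 19.7% and 22.0% of all genes, with medians of 0.13, -0.22 and -0.08 on the log2 scale. In pBIC against BIC the share lay below that of all genes, and in pBIC against YC it was near it. Bax, the pore-forming death protein, measured 51.6, 44.8 and 50.1 CPM in YC, 134, 78.5 and 84.6 CPM in BIC and 36.0 to 54.4 CPM in pBIC. It rose in BIC (log2 1.02 ± 0.22 SE, edgeR adjusted p = 0.0162) and fell in pBIC against BIC (-1.06 ± 0.18, edgeR adjusted p = 0.00323). Casp1, the inflammatory caspase, did so too (0.97 ± 0.27, edgeR adjusted p = 0.044, and -0.83 ± 0.22, edgeR adjusted p = 0.0235). Fas, a death receptor that is also a germinal centre marker, fell by 5.21 ± 0.81 relative to YC in BIC (edgeR adjusted p = 0.00399) and fell by 3.54 ± 0.57 in pBIC (edgeR adjusted p = 0.00166). Cdkn2aip, a protein that binds Arf, fell by 1.01 ± 0.22 in BIC against YC (edgeR adjusted p = 0.0166) and fell by 0.83 ± 0.18 in pBIC against YC (edgeR adjusted p = 0.00776). Trp53inp2, a regulator of autophagy, fell by 3.33 ± 0.79 and fell by 2.55 ± 0.60 in the same comparisons (edgeR adjusted p = 0.0245 and 0.0112). Mdm2, the negative regulator and target of p53, fell in pBIC against YC (-0.82 ± 0.26, edgeR adjusted p = 0.0423) and did not pass in BIC against YC (-0.33 ± 0.31, edgeR adjusted p = 0.547).

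Of 13 regulators of p53, 1 rose and 2 fell in BIC against YC, 3 rose and 1 fell in pBIC against BIC, and 5 rose and 2 fell in pBIC against YC. These are 23.1%, 30.8% and 53.8% of the 13, beside 8.88%, 19.7% and 22.0% of all genes, with medians of -0.02, 0.36 and 0.31 on the log2 scale. Mdm4, which restrains p53 as a partner of Mdm2, measured 419, 565 and 486 CPM in YC, 1045, 868 and 1029 CPM in BIC and 241 to 455 CPM in pBIC. It rose in BIC against YC (log2 1.001 ± 0.25 SE, edgeR adjusted p = 0.0308) and fell in pBIC against BIC (-1.60 ± 0.21, edgeR adjusted p = 0.000963). Cdkn2a, the locus of p16 and the p53 activator Arf, measured 1.65, 3.69 and 3.20 CPM in YC, 20.4, 40.2 and 9.26 CPM in BIC and 207, 228, 289, 173, 347 and 11.7 CPM in pBIC 1 to 6. It rose in pBIC by 6.20 ± 1.001 relative to YC (edgeR adjusted p = 0.00165) and by 3.17 ± 0.84 relative to BIC (edgeR adjusted p = 0.0218), with pBIC 6 inside the BIC range. The gene-level count does not separate its 2 products. Chek1, a checkpoint kinase of dividing cells, fell in BIC against YC (-1.49 ± 0.42, edgeR adjusted p = 0.0458) and rose in pBIC against BIC (1.96 ± 0.39, edgeR adjusted p = 0.00596). Usp7, a deubiquitinase that acts on Mdm2 and p53, fell by 0.97 ± 0.26 in BIC against YC (edgeR adjusted p = 0.0373).

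**Figure D4:**
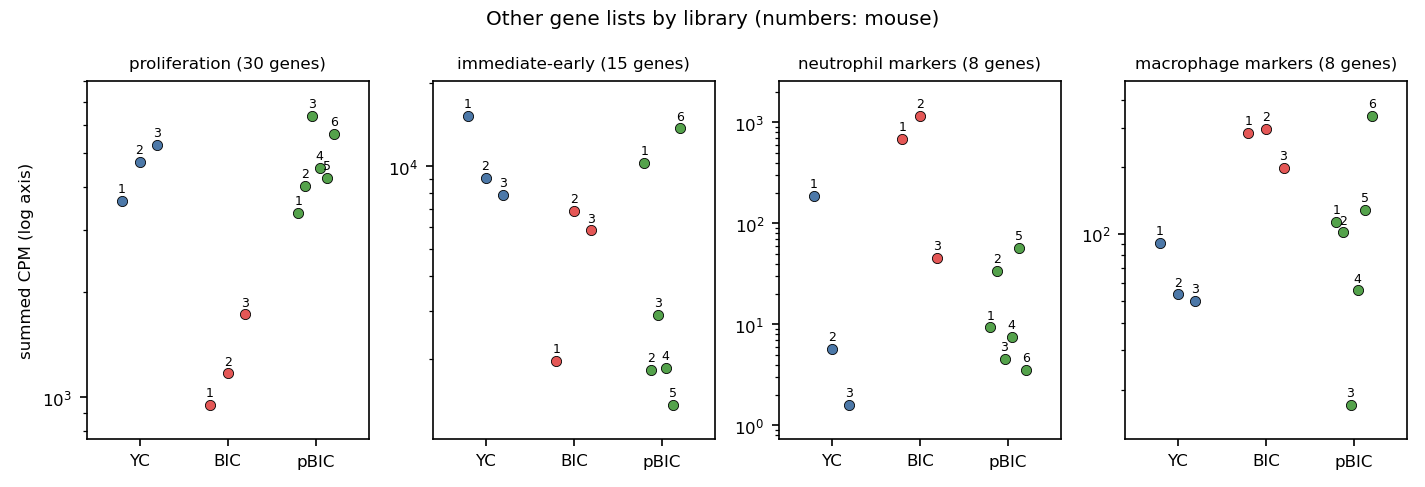
Summed CPM (y axis, log scale) of 4 other gene lists in each library, by group (x axis), with the mouse number at each point. Proliferation genes are lowest in the 3 BIC libraries, immediate-early genes are high in pBIC 1 and pBIC 6 among pBIC, and neutrophil markers are highest in BIC 1 and BIC 2.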

How the data were processed

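Each library has 1 deposited table of raw gene counts, which the authors made with featureCounts 1.5.0 over exons of GENCODE M13, without a strand or paired-end option, per the file headers. STAR, edgeR and limma are named in the submitters' processing notes, with builds mm10 and GRCm38. Replicates are separate mice, per the design text. Symbols matched 50376 of 50686 identifiers.

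The 38 members and the other lists were chosen with earlier results of these data known. From the marker lists, 2 genes are not reported here. The test was edgeR 4.0.16 under R 4.3.3 (TMM factors, its expression filter with a minimum count of 10, quasi-likelihood F test, all 12 libraries, 1 coefficient per group, Benjamini-Hochberg over 17754 genes), and calls were made below an adjusted p of 0.05. Standard errors restate the F statistic. Every member is named, those called in any comparison with per-library values, and other lists by counts with up to 4 members per comparison in order of p. A count of 0 allows up to 3 counts, or 0.0634 to 0.0922 CPM, for counting error only. Promoter sequences are from RefSeq. The fitting script was tested on simulated data. Alternatives were DESeq2 1.42.0, median-ratio factors, no filter, 2 groups, a replicate block, an Xist term, the pBIC subsets and single libraries left out, with 2 sets of libraries added after seeing the data.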

Additional observations from a re-analysis of the deposited data

How the results depend on the processing

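Each of the 29 calls made for members kept its direction in every fit listed here. None was lost with DESeq2 or with median-ratio factors, while 4 were lost with no filter on low counts, 3 with only the 2 groups in the fit, 6 with the replicate block and 11 with an Xist term. Sex-linked transcripts, the reporter and the group cannot be told apart in BIC against YC. Replicate numbers were not taken as pairs (correlations of same-numbered libraries from -0.095 to 0.155). Numbers 4 to 6 occur only in pBIC, so the block fitted pBIC 4 to 6 exactly. The block comparisons with pBIC therefore rest on the other pBIC libraries alone. The block ended the calls of Eda2r and Ei24 in BIC against YC and pBIC against BIC. It also ended those of Aen and Tigar in pBIC against YC. It added Cdkn1a, Gtse1 and Sfn in BIC against YC. In pBIC it added Cdkn1a, Sfn and Trp53inp1 against YC and Trp53inp1 against BIC.

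In BIC against YC, fitting only the 2 groups gave 12 members higher, 9 lower and 4602 genes, and DESeq2 2827 genes. The Xist term gave 4 higher, of which Psrc1 and Ddit4 were new. With the replicate block 5 were lower and 6 higher. Single libraries left out gave 2 to 10 higher, 1 to 4 lower and 563 to 1867 genes. Leaving out YC 1, BIC 1 and BIC 2 together gave 0 higher, 0 lower and 0 genes.

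In pBIC against BIC, DESeq2 and the Xist term gave 4 higher. Single libraries left out gave 2 to 3 higher, 7 to 11 lower and 1422 to 4134 genes. Leaving out YC 1, BIC 1 and BIC 2 together gave 0 higher, 1 lower and 29 genes, and leaving out pBIC 1 and pBIC 6 together gave 5 higher and 5389 genes.

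In pBIC against YC, 1 was higher with no filter, with the replicate block, with the Xist term and with only pBIC 1 to 3. With the Xist term it was Ddit4, which the main fit did not call. Lower members numbered 7 with the replicate block and with only pBIC 1 to 3, and 2 with the Xist term. The block and the fit with only pBIC 1 to 3 rest on the same pBIC libraries and are not separate checks. Single libraries left out gave 0 to 3 higher, 2 to 6 lower and 1904 to 4376 genes, and 5535 genes were called without pBIC 1 and pBIC 6 together. Leaving out YC 1, BIC 1 and BIC 2 together gave 0 higher, 2 lower and 1295 genes, and leaving out pBIC 1 and pBIC 6 together gave 5 higher and 10 lower, with Plk2 at -4.02 where it had been 0.995.

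For pBICh against pBICl, DESeq2 called 28 genes where edgeR called 0, and members stayed at 0 in every setting. No paired analysis was possible there because numbers 4 to 6 occur only in pBICl. Genes under about 1 CPM, such as Eda2r, Perp and Gdf15, rest on few counts.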

Other observations

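Genes of the integrated stress response, which supply amino acids and one-carbon units when translation is checked, were followed because p53 targets such as Sesn2 and Ddit4 answer to that pathway too. Of 14 tested, 8 rose and 0 fell in pBIC against BIC, with a median of 1.85 on the log2 scale beside 0.09 over all genes. In pBIC against YC 4 rose and 0 fell, and in BIC against YC 0 rose and 1 fell. These are 57.1%, 28.6% and 7.14% of the 14, beside 19.7%, 22.0% and 8.88% of all genes. Shmt2, a mitochondrial enzyme of serine use, measured 154, 145 and 162 CPM in YC, 97.3, 111 and 120 CPM in BIC and 314 to 526 CPM in pBIC, where it rose against BIC (1.77 on the log2 scale, edgeR adjusted p = 0.000589). Mthfd2, a mitochondrial folate enzyme, rose by 1.44 (edgeR adjusted p = 0.00135). Psat1 and Phgdh, enzymes of serine synthesis, rose by 2.74 and 2.16 in that comparison (edgeR adjusted p = 0.002 and 0.00411). Psat1 was the gene that fell in BIC against YC (-1.86, edgeR adjusted p = 0.0234). In pBIC against YC, Shmt2, Phgdh, Mthfd2 and Asns rose (1.28, 1.99, 0.90 and 1.96, edgeR adjusted p from 0.000933 to 0.0435). Sesn2 and Ddit4 themselves passed in no comparison.

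Rpl11 and Rpl5, ribosomal proteins that can bind Mdm2 when ribosome assembly is disturbed, rose in pBIC against YC (1.08, edgeR adjusted p = 0.00181, and 0.58, edgeR adjusted p = 0.0242). Chek2, a damage checkpoint kinase, measured 10.9, 13.6 and 14.6 CPM in YC, 10.3, 13.6 and 16 CPM in BIC and 19.6 to 31 CPM in pBIC, and rose in pBIC by 0.93 relative to YC (edgeR adjusted p = 0.0104) and by 0.90 relative to BIC (edgeR adjusted p = 0.0144). In BIC, where p53 was not floxed, Chek2 did not pass against YC (0.03, edgeR adjusted p = 0.954).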
